A study of Homo sapiens with 12 samples.

Results

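Transcript levels of 40 genes of DNA replication and of entry into S phase were read in the endometrial cancer lines Ishikawa and KLE, both of human origin, by bulk RNA sequencing of poly(A)-selected RNA. The genes were taken by symbol, with earlier results of these data known, and all 40 were found among the 20332 genes of the deposited table. The first group was Ishikawa cells kept for 24 h in 200 µM CuCl2, and the second was Ishikawa cells without copper. The remaining groups were KLE cells with and without the same copper exposure. Each group held 3 libraries, 12 in all, described in the labels as independent biological replicates, and the labels call the copper-free cells both untreated and vehicle. All groups grew in the same serum-containing medium. Each line stands for a single tumor-derived culture.

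Before a cell copies its DNA, the origin recognition complex with CDC6 and CDT1 loads a ring of MCM2 to MCM7 proteins at each origin in G1. In S phase CDC45 and the GINS complex convert this ring into the active replicative helicase, and polymerases alpha, delta and epsilon copy the strands behind it on the PCNA clamp, fed by ribonucleotide reductase and thymidylate synthase. Many of these genes are transcribed at the G1/S boundary by E2F factors, whose activity is released when cyclin D and cyclin E kinases phosphorylate the retinoblastoma protein, and E2F7 and E2F8 shut the same genes off later.

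Libraries held 14050275 to 25057003 counts, and the smallest count of any of the 40 genes in any library was 126. Epithelial markers were present, with PAX8 at 228 to 242 TPM (transcript abundance scaled for length and library size) in CuCl2 and 413 to 455 TPM in control Ishikawa libraries, and at 346 to 359 TPM in CuCl2 and 422 to 454 TPM in control KLE libraries. KRT7 at 1.48 to 9.32 TPM and MUC1 at 4.99 to 8.29 TPM were low in all libraries. The estrogen and progesterone receptors ESR1 and PGR stayed at or under 0.51 TPM in every library. Fibroblast markers summed to 86.6 to 121 TPM in CuCl2 and 19.7 to 46.1 TPM in control Ishikawa libraries, of which ACTA2 alone made 68.4 to 81.5 TPM in CuCl2 and 11.9 to 14.6 TPM in control libraries, and 1 of 9 tested markers was higher with copper. In KLE cells they summed to 18.7 to 36.6 TPM with CuCl2 and 27.7 to 58.7 TPM in controls, and 2 of 7 tested were lower. Leukocyte markers summed to 9.08 to 12.5 TPM in CuCl2 and 7.42 to 9.89 TPM in control Ishikawa libraries, and to 30.3 to 37.7 TPM in CuCl2 and 21.3 to 24.97 TPM in control KLE libraries, mostly CD68, which was higher with CuCl2 in both lines. Most leukocyte markers were too low to test, and PTPRC, at 1.07 CPM with CuCl2 and 0.387 CPM without in Ishikawa cells, lay near the count filter. Endothelial markers summed to 5.28 to 7.13 TPM in CuCl2 and 5.19 to 5.95 TPM in control Ishikawa libraries, and to 3.98 to 5.04 TPM in CuCl2 and 5.83 to 7.10 TPM in control KLE libraries; 1 of 3 tested was higher and 1 lower in Ishikawa cells, and 3 of 5 were lower in KLE cells. Epithelial markers summed to 2485 to 2610 TPM in CuCl2 and 3588 to 4029 TPM in control Ishikawa libraries, and to 5877 to 5938 TPM in CuCl2 and 5112 to 5395 TPM in control KLE libraries; 2 of 9 tested were higher and 5 lower in Ishikawa cells, and 3 of 8 higher and 1 lower in KLE cells. The 2 epithelial markers called higher in Ishikawa cells, KRT7 and ESR1, averaged only 3.29 and 0.818 CPM there. The endothelial marker CDH5, called lower in KLE cells, had 0.486 CPM with CuCl2 and 1.21 CPM without. It lay near the count filter and may have passed it through the controls. VWF, also called lower in KLE cells, had only 1.29 CPM with CuCl2 and 2.34 CPM without. The part of all these markers in the results was not tested. Ishikawa control 2 stood apart: DCN, LUM and POSTN were listed at 0 there and in no other library, and it differed from the other controls of the line by a chi-square per degree of freedom of 8.45 and 12.85, against 2.05 to 3.95 for all other replicate pairs. Results that rest on it are given with and without it. In bulk RNA, fewer cells in S phase and less transcript per cell cannot be told apart.

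The question put to each line was which of these transcripts changed with 24 h of copper excess. In Ishikawa cells 17 of the 40 genes were higher and 14 lower with copper, and 9 did not pass the test. Over all 13359 genes tested there, 69.1% were called, 33.8% higher and 35.3% lower, so the share of called replication genes sits near the share of all genes. In KLE cells 11 were higher, 11 lower and 18 not called, against 50.8% called, 25.6% higher and 25.2% lower of 13031 genes. A gene counts as called when its Benjamini-Hochberg adjusted p in edgeR's two-sided quasi-likelihood test is under 0.05. The median log2 fold change was 0.12 for the 40 genes and −0.01 for all genes in Ishikawa cells, and 0.004 for the 40 genes and −0.002 for all genes in KLE cells. These values hold with TMM scaling, which sets the bulk of genes near 0. With library totals the medians in Ishikawa cells were −0.04 for the 40 genes and −0.17 for all genes, and all genes split into 3370 higher and 6068 lower, against 4514 and 4714 with TMM. The Ishikawa members then split into 11 higher and 16 lower.

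Members of the list moved in both directions. Counts by role given below rest on few genes each and stand beside the shares of all genes given above. They are not read as traits of a role. Higher in both lines were 10 genes: ORC1, ORC6, CDC6, MCM10, CDC45, GINS4, RFC3, RRM1, CCND3 and SLBP. Lower in both were 11 genes: MCM2, MCM3, MCM4, MCM5, MCM6, POLE2, TYMS, E2F1, E2F2, E2F8 and UHRF1. No gene was called in opposite directions with the TMM factors and count filter used, although with a filter of 1 CPM in 3 libraries RRM2 was called higher in Ishikawa cells (0.14) and lower in KLE cells (−0.08, adjusted p = 0.0497). Further, 7 were higher in Ishikawa cells without a call in KLE cells, 3 were lower in the same way, PCNA was called in KLE cells alone, and 8 were called in neither line. The shares of all genes called alike or in opposite directions in the lines were not worked out. The agreement between the lines is therefore not read as particular to these genes. Of the genes called in Ishikawa cells, 30 of 31 had CuCl2 and control libraries that did not overlap, CDT1 being the exception. In KLE cells the same held for 20 of 22, with RFC3 and POLE2 as the exceptions. Groups also did not overlap for 4 uncalled genes in Ishikawa cells, GINS3, PCNA, RFC2 and CCNE1. In KLE cells the uncalled genes without overlap were 3, GINS2, POLA1 and RRM2. A call and a lack of overlap rest on the same values, and the share over all genes was not worked out. These counts are therefore not read as a trait of the list, in either direction. The summed level of the 40 genes was 3682 to 3753 TPM in CuCl2 and 4195 to 4454 TPM in control Ishikawa libraries. In KLE libraries it was 3996 to 4141 TPM with CuCl2 and 4134 to 4309 TPM in controls, where the groups overlap. TPM carry no TMM scaling, whose factors were 0.941 to 0.955 in CuCl2 and 1.05 to 1.062 in control Ishikawa libraries. The lower Ishikawa sum is therefore not on the scale of the calls.

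**Figure D1:**
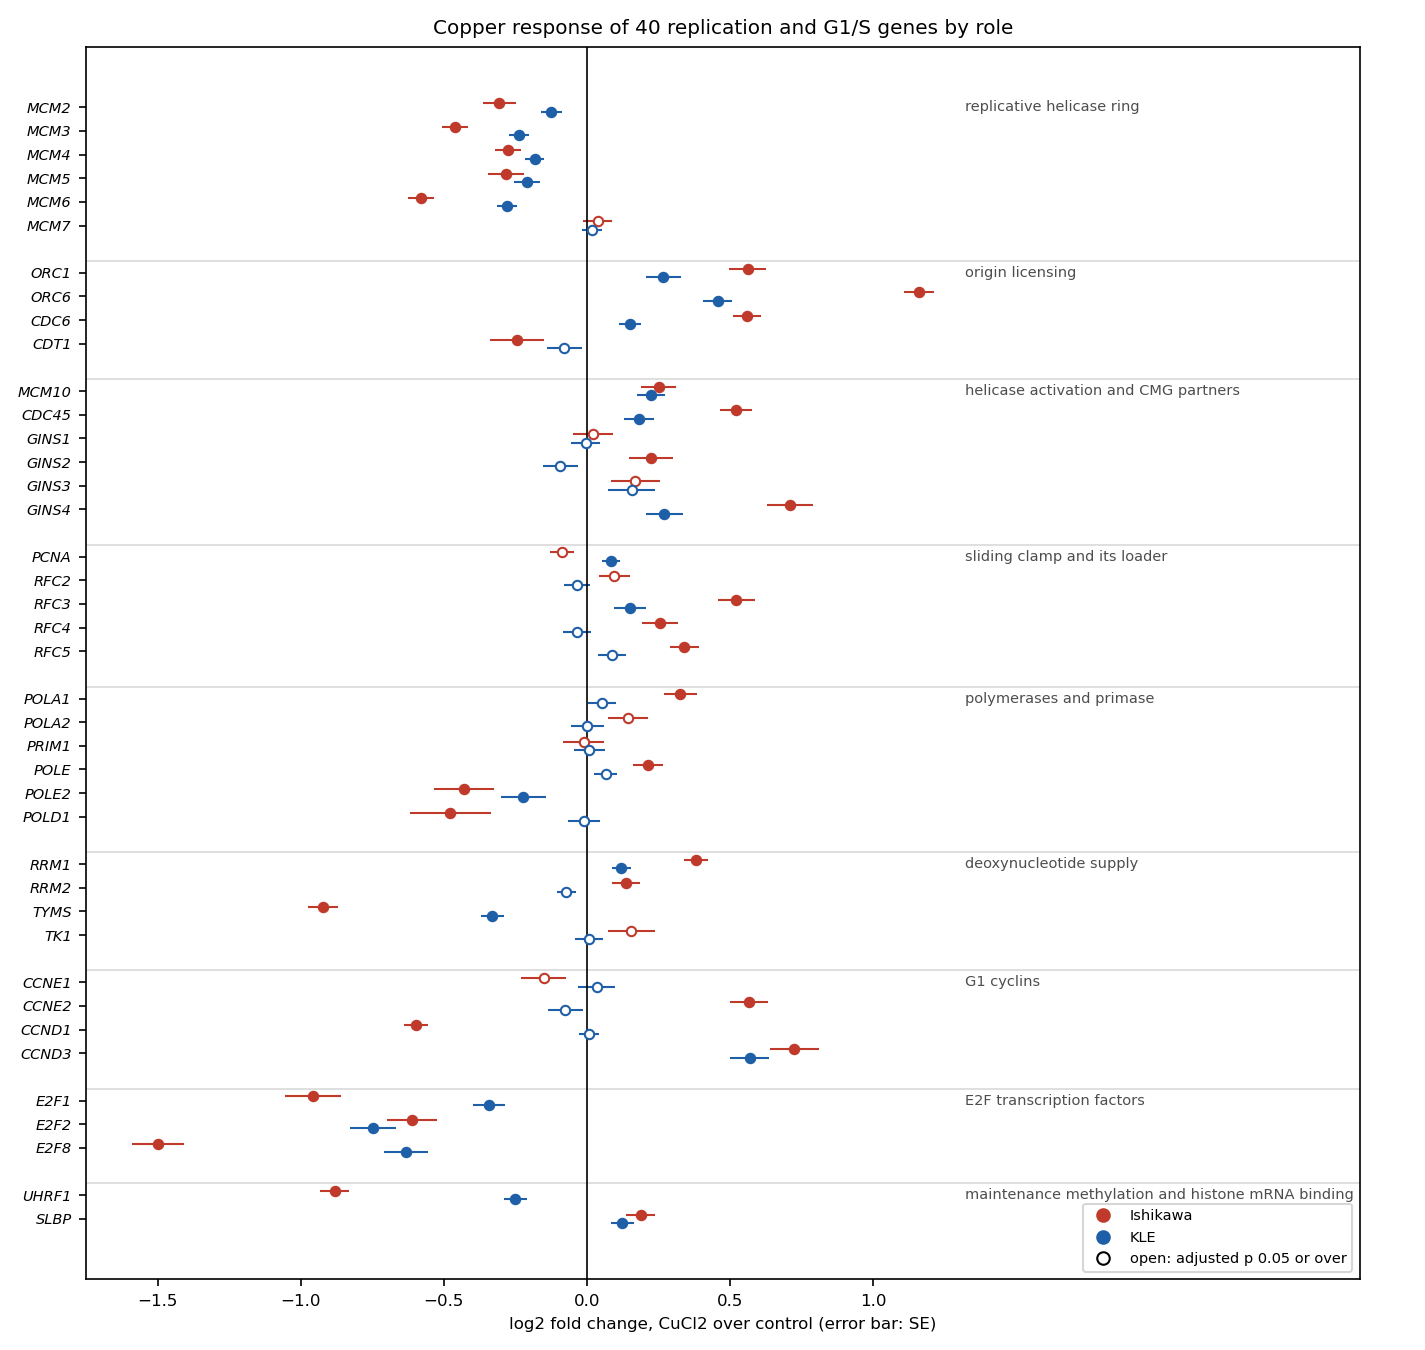
Log2 fold change of each of the 40 genes, CuCl2 over control, in Ishikawa cells (red) and KLE cells (blue), ordered by role; bars are the SE of the edgeR fit of 3 against 3 libraries and open points have an adjusted p of 0.05 or more. The 3 E2F genes of the list and 5 of the 6 helicase ring genes lie left of 0 in both lines, while ORC1, ORC6 and CDC6 lie right of it.

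The 3 E2F factors among the 40 genes, E2F1, E2F2 and E2F8, fell in both lines. The other E2F genes, named after their values were seen, went both ways: E2F5 and E2F7 fell in both lines, while E2F3, E2F4 and E2F6 rose in both. E2F6, a repressor, had log2 changes of 1.17 ± 0.08 in Ishikawa cells and 0.47 ± 0.06 in KLE cells (SE). E2F8, a repressor of E2F targets (chromosome 11, 19224063 to 19241620, GRCh38), had 10.8, 10.6 and 9.39 CPM (counts scaled to library size with TMM factors within a line) in the CuCl2 libraries of Ishikawa cells, against 28.7, 29.9 and 28.7 CPM in their controls. KLE cells had 21.3, 20.6 and 17.0 CPM with CuCl2, against 30.8, 30.3 and 30.2 CPM in controls. The groups do not overlap in either line, and the controls of the lines sit side by side. The log2 fold change was −1.499 ± 0.09 in Ishikawa cells (SE, adjusted p = 2.25e-09) and −0.63 ± 0.08 in KLE cells (adjusted p = 7.28e-09).

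E2F1, the activator that drives entry into S phase (chromosome 20, 33675683 to 33686404), had 40.2, 41.5 and 42.3 CPM in CuCl2 Ishikawa libraries, against 73.8, 94.5 and 71.1 CPM in controls. KLE libraries had 40.7, 40.8 and 41.2 CPM with CuCl2, against 51.7, 52.5 and 51.4 CPM in controls. The CuCl2 libraries of the lines stand at nearly 1 level, and Ishikawa control 2 is the highest library. The log2 fold change was −0.96 ± 0.10 in Ishikawa cells (SE, adjusted p = 3.02e-06), −0.82 without Ishikawa control 2, and −0.34 ± 0.06 in KLE cells (adjusted p = 2.05e-06).

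E2F2, another activator E2F (chromosome 1, 23506430 to 23531220), had 21.5, 21.9 and 23.8 CPM in CuCl2 Ishikawa libraries, against 34.2, 37.0 and 31.0 CPM in controls. The KLE libraries held 16.8, 14.9 and 15.9 CPM with CuCl2, against 26.8, 26.7 and 26.4 CPM in controls. Its groups do not overlap in either line. E2F2 was the only one of the 40 genes whose change was larger in KLE cells, at −0.75 ± 0.08 (SE, adjusted p = 1.87e-10), than in Ishikawa cells, at −0.61 ± 0.09 (adjusted p = 1.88e-05), and the difference between the lines was not called (−0.08 ± 0.12, adjusted p = 0.602).

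Promoter sequences were read for the 34 of the 40 genes that RefSeq's table for GRCh38.p14 covers, each from 250 bases before to 50 bases after an annotated start. E2F letters were searched as TTTCCCGC, TTTCGCGC, TTTGCCGC or TTTGGCGC on both strands, and such a match was found for 19 of the 34, 55.9%, against 4.0% of the 27305 genes in the table. The windows of the 34 genes had a median GC content of 66.7%, against 58.3% in all genes, and the letters searched are themselves rich in G and C. The stretches below show where the letters stand in 5 genes that fell in both lines and in 3 that rose, so that the members can be compared by their sequence. Capitals mark the match, and the strand shown is that of the gene.
E2F1 (chr20:33686386-33686445, minus strand): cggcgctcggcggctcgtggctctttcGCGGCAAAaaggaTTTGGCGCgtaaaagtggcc
E2F2 (chr1:23531242-23531301, minus strand): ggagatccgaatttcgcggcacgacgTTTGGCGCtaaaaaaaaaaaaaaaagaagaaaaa
MCM6 (chr2:135876496-135876555, minus strand): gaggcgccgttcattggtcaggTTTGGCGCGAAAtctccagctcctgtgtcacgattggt
TYMS (chr18:657588-657647, plus strand): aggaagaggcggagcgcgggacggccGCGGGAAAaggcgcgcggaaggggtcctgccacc
UHRF1 (chr19:4909441-4909500, plus strand): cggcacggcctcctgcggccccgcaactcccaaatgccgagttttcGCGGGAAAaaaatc
RFC3 (chr13:33818068-33818127, plus strand): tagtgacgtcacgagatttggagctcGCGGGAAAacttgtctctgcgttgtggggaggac
POLA1 (chrX:24693755-24693814, plus strand): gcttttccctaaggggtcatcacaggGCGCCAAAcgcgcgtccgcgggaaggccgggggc
GINS2 (chr16:85688955-85689014, minus strand): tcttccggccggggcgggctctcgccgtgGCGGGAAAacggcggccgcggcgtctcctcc

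The E2F1 stretch holds a match on each strand, and in MCM6 a match on each strand shares the central letters. TYMS, UHRF1, RFC3 and GINS2 carry the same 8 letters, although TYMS and UHRF1 fell in both lines while RFC3 rose in both and GINS2 rose in Ishikawa cells. Among the genes that were lower in both lines, 8 of the 8 with a window held a match: MCM2, MCM3, MCM6, POLE2, TYMS, E2F1, E2F2 and UHRF1. Among those higher in both lines, 2 of 9 held one, CDC6 and RFC3. This grouping was made after the directions were seen and carries no test. Over all genes tested in Ishikawa cells that have a window, 37.2% of the 709 with a match were higher and 33.4% lower, against 34.2% and 35.5% of the 10025 without. In KLE cells 26.2% of the 698 with a match were higher and 25.9% lower, against 26% and 25% of the 9815 without. Over all genes the shares of higher and of lower calls lay close together with and without a match. A match describes the letters of the window and no more.

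**Figure D2:**
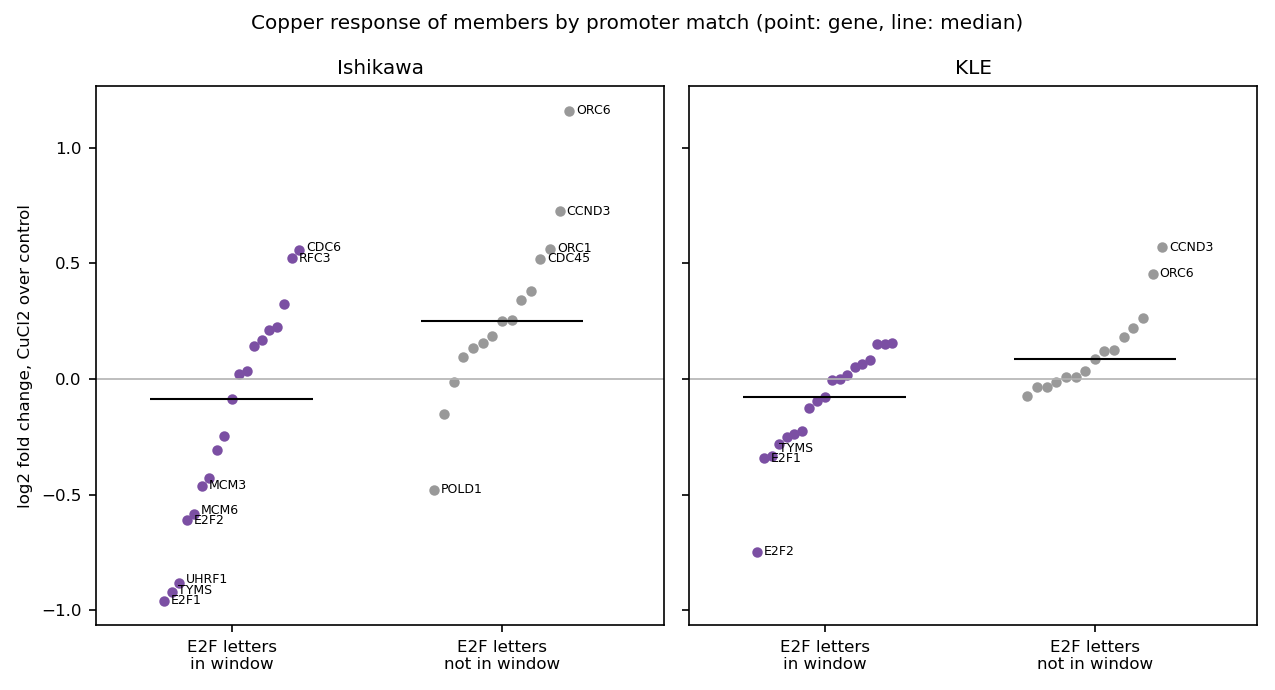
Log2 fold change of the 34 genes with a RefSeq promoter window, CuCl2 over control, split by whether the window holds E2F letters, with Ishikawa cells on the left and KLE cells on the right; lines are medians. Genes with a match span both sides of 0, from E2F1 at −0.96 to CDC6 at 0.56 in Ishikawa cells, and the genes without a match lie mostly at or above 0, POLD1 at −0.48 being the lowest in Ishikawa cells.

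The G1 cyclins did not move as a group. CCND3, a cyclin D that activates CDK4 and CDK6 (chromosome 6, 41934933 to 42050357), had 35.8, 34.0 and 37.9 CPM in CuCl2 Ishikawa libraries, against 22.4, 22.8 and 19.8 CPM in controls. KLE cells showed 39.0, 37.7 and 41.8 CPM with CuCl2, against 24.7, 27.6 and 27.4 CPM in controls. All CuCl2 libraries lay above all controls. The change was 0.72 ± 0.08 in Ishikawa cells (adjusted p = 2.24e-06) and 0.57 ± 0.07 in KLE cells (log2 ± SE, adjusted p = 3.23e-09).

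CCND1, the other cyclin D of the list (chromosome 11, 69641087 to 69654474), went the other way in Ishikawa cells. It had 541, 500 and 524 CPM with CuCl2, against 772, 786 and 811 CPM in controls, with no overlap (−0.60 ± 0.04 SE, adjusted p = 1.12e-08). In KLE cells it had 747, 670 and 682 CPM with CuCl2, against 700.2, 710 and 679 CPM in controls. These libraries interleave (0.007 ± 0.034 SE, adjusted p = 0.878). CCNE2, a cyclin E that activates CDK2, averaged 67.8 ± 0.87 CPM with CuCl2 and 45.7 ± 3.18 CPM without in Ishikawa cells, and 44.4 ± 3.94 CPM with CuCl2 and 46.8 ± 2.46 CPM without in KLE cells (SD, n = 3 each). It rose in Ishikawa cells by 0.57 ± 0.07 (log2 ± SE) and was not called in KLE cells (−0.08 ± 0.06). CCNE1, its paralog, was not called in Ishikawa cells at −0.15 ± 0.08 (adjusted p = 0.0972) or in KLE cells at 0.03 ± 0.07. The exons of CCNE2 share 1629 bases with INTS8 and those of CCND1 497 bases with LTO1, both on the opposite strand, so reads of these pairs may not be told apart. The Ishikawa CuCl2 libraries of CCNE1 all lay below the controls, and the gene was called lower there without Ishikawa control 2 (−0.18, adjusted p = 0.0446), under upper-quartile (−0.26) and library-total scaling (−0.31).

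Among the origin licensing genes, 3 of 4 rose in both lines. ORC6, the smallest subunit of the origin recognition complex (chromosome 16, 46689643 to 46698394), had 118, 119 and 117 CPM in CuCl2 Ishikawa libraries, against 51.8, 53.8 and 52.7 CPM in controls. KLE cells gave 74.4, 79.9 and 75.7 CPM with CuCl2, against 56.2, 54.6 and 57.0 CPM in controls. The groups are far apart in Ishikawa cells and clearly separate in KLE cells, while the controls of the lines are close. This was the largest rise of the 40 genes in Ishikawa cells, 1.16 ± 0.05 (log2 ± SE, adjusted p = 9.6e-11), with 0.46 ± 0.05 in KLE cells (adjusted p = 4.38e-10). ORC1, the ATPase subunit of the complex, averaged 55.5 ± 1.23 CPM with CuCl2 and 37.6 ± 1.63 CPM without in Ishikawa cells, and 46.1 ± 2.31 CPM with CuCl2 and 38.3 ± 1.69 CPM without in KLE cells (SD, n = 3 each). CDC6, the ATPase that recruits the MCM ring to ORC, rose by 0.56 ± 0.05 in Ishikawa cells and 0.15 ± 0.04 in KLE cells (log2 ± SE). CDT1, which brings MCM to the origin and is degraded in S phase, was the exception. It had 38.0, 39.7 and 38.9 CPM in CuCl2 Ishikawa libraries, against 45.03, 53.1 and 39.2 CPM in controls, where the groups overlap. Its call (−0.24 ± 0.10, adjusted p = 0.033) was lost without Ishikawa control 2 (−0.13, adjusted p = 0.131) and without any 1 of the CuCl2 libraries (adjusted p of 0.0627 to 0.101), and was missed with DESeq2 (adjusted p = 0.0515), and in KLE cells it was −0.08 ± 0.06.

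The helicase ring was mostly lower with copper. Of the 6 ring subunits, MCM2 to MCM6 fell in both lines and MCM7 was not called in either. MCM6 (chromosome 2, 135839626 to 135876426) had 133, 134 and 126 CPM in CuCl2 Ishikawa libraries, against 196 CPM in each of the 3 controls. The KLE values were 170, 174 and 174 CPM with CuCl2, against 208, 208 and 212 CPM in controls. In both lines the groups are separate by many times their spread. The fall was −0.58 ± 0.05 in Ishikawa cells (SE, adjusted p = 3.98e-08) and −0.28 ± 0.04 in KLE cells (adjusted p = 1.18e-08). MCM3 averaged 180 ± 1.27 CPM with CuCl2 and 248 ± 9.9 CPM without in Ishikawa cells, and 193 ± 4.2 CPM with CuCl2 and 228 ± 1.29 CPM without in KLE cells (SD, n = 3 each). MCM2, MCM4 and MCM5 had log2 fold changes of −0.31, −0.28 and −0.28 in Ishikawa cells and of −0.12, −0.18 and −0.21 in KLE cells. MCM7 had 257, 254 and 251 CPM in CuCl2 Ishikawa libraries, against 244, 266 and 233 CPM in controls. The CuCl2 libraries lie within the range of the controls (0.04 ± 0.05 SE, adjusted p = 0.531), and in KLE cells the groups overlap as well (0.02 ± 0.04, adjusted p = 0.678). MCM7 shares 392 exonic bases with AP4M1 on the opposite strand, and the sources used here do not state whether strand was used in counting.

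Of the 6 genes that turn the loaded ring into a moving helicase, 4 rose in Ishikawa cells and 3 in KLE cells, and none fell. GINS4, a subunit of the GINS complex (chromosome 8, 41529206 to 41545046), had 51.6, 59.1 and 53.0 CPM in CuCl2 Ishikawa libraries, against 30.5, 36.4 and 32.8 CPM in controls. In KLE cells it had 39.0, 37.8 and 37.8 CPM with CuCl2, against 30.2, 33.9 and 30.8 CPM in controls. The CuCl2 libraries lay above the controls in both lines (0.71 ± 0.08 SE, adjusted p = 1.96e-06 in Ishikawa cells, and 0.27 ± 0.07, adjusted p = 0.000617 in KLE cells). CDC45, the third component of the active helicase, averaged 84.2 ± 3.1 CPM with CuCl2 and 58.8 ± 0.90 CPM without in Ishikawa cells, and 64.7 ± 2.23 CPM with CuCl2 and 57.0 ± 3.05 CPM without in KLE cells (SD, n = 3 each). MCM10, which fires the assembled helicase and is no part of the ring, rose by 0.25 ± 0.06 in Ishikawa cells and 0.22 ± 0.05 in KLE cells (log2 ± SE), the Ishikawa call being lost under upper-quartile (0.14, adjusted p = 0.0569) and library-total scaling (0.10, adjusted p = 0.163). The other GINS subunits moved less. GINS2 rose in Ishikawa cells by 0.22 ± 0.08 (0.14 and adjusted p = 0.0806 without Ishikawa control 2, and adjusted p = 0.0611 without Ishikawa CuCl2 3, with values of 0.11 and 0.07, not called, under upper-quartile and library-total scaling) and was −0.09 ± 0.06 in KLE cells. GINS1 stood at 0.02 ± 0.07 and GINS3 at 0.17 ± 0.09 in Ishikawa cells, and at −0.005 ± 0.05 and 0.16 ± 0.08 in KLE cells, with no call for either gene, although GINS3 was called higher in KLE cells without KLE control 2 (0.22, adjusted p = 0.0435). The 4 subunits, which form 1 complex in equal number, ranged over log2 changes of 0.02 to 0.71 in Ishikawa cells.

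**Figure D3:**
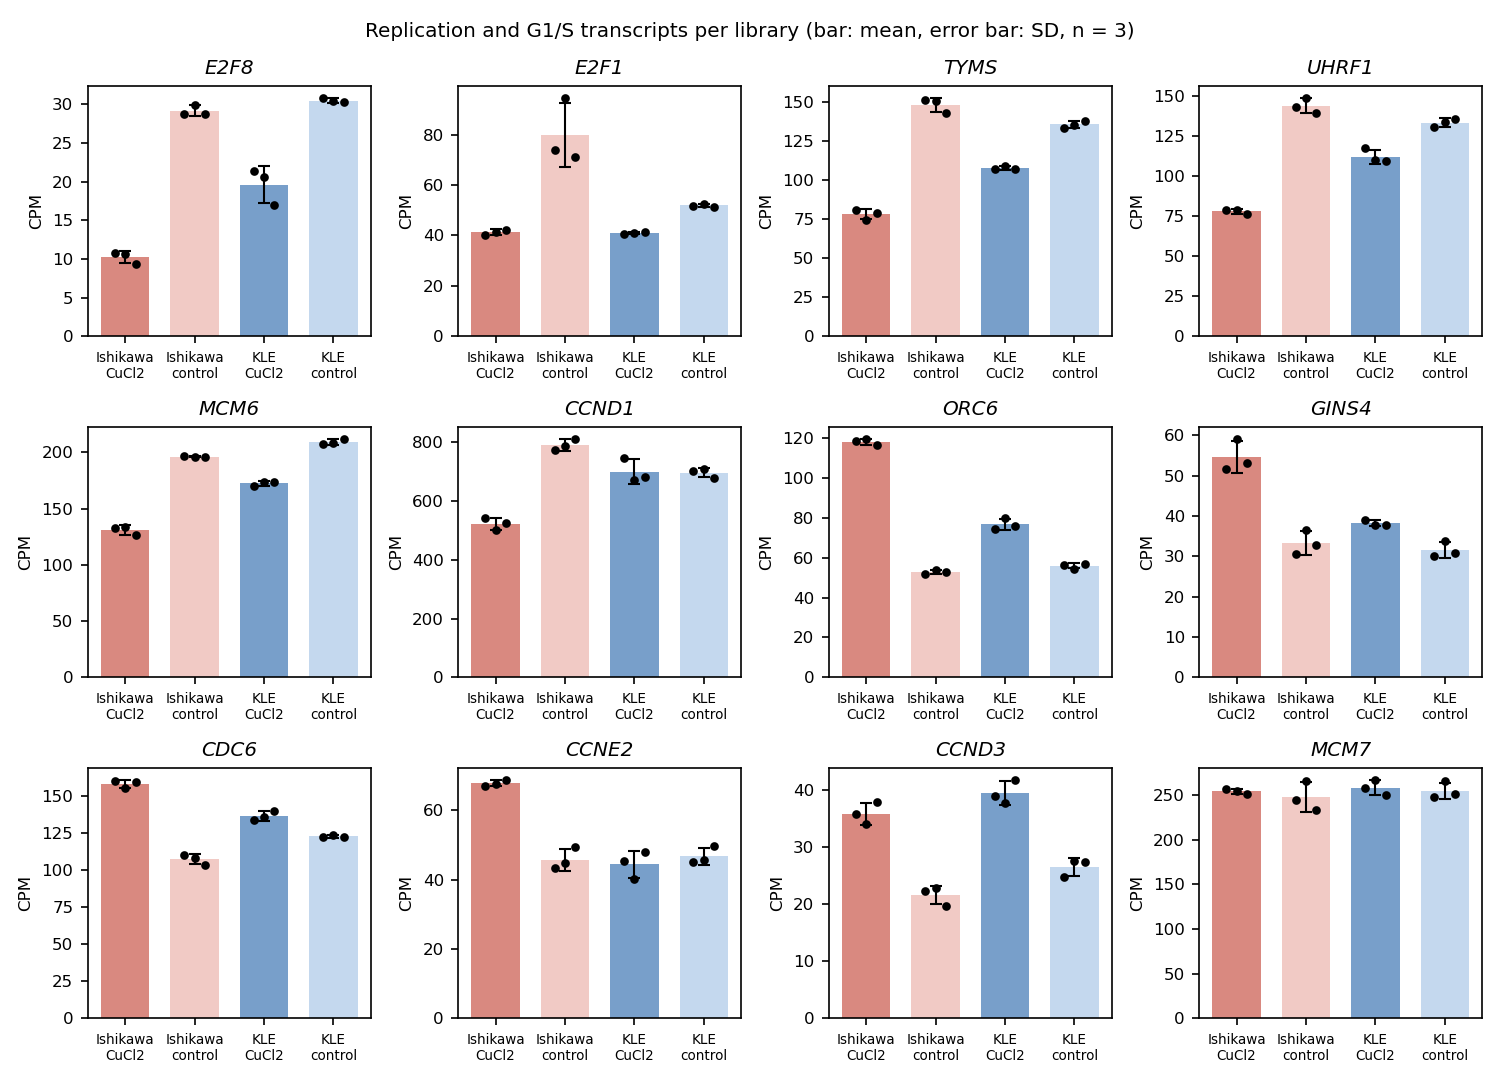
CPM of 12 of the genes in every library (points), with the mean (bar) and SD (error bar) of 3 libraries in each group; CuCl2 stands left of control within each line. E2F8, E2F1, TYMS, UHRF1 and MCM6 are lower with CuCl2 in both lines, ORC6, GINS4, CDC6 and CCND3 are higher in both, CCND1 and CCNE2 change in Ishikawa cells, and MCM7 groups overlap.

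PCNA changed little, and its loader rose in part: of the 5 clamp and loader genes, 3 rose in Ishikawa cells and 2 in KLE cells. PCNA, the sliding clamp that holds polymerases on DNA (chromosome 20, 5114953 to 5126626), had 260, 272 and 264 CPM in CuCl2 Ishikawa libraries, against 283, 276 and 286 CPM in controls. In KLE cells it had 429, 453 and 430 CPM with CuCl2, against 408, 417 and 414 CPM in controls. The CuCl2 libraries lie just below the controls in Ishikawa cells and just above them in KLE cells. Only the KLE change was called (0.08 ± 0.03 SE, adjusted p = 0.0251), and the Ishikawa value was −0.09 ± 0.04 (adjusted p = 0.0856). That KLE call was lost under upper-quartile (0.04) and library-total scaling (0.05), and without KLE control 1 or 3 or KLE CuCl2 2, at 0.057 to 0.085, while the Ishikawa fall was called under upper-quartile (−0.20) and library-total scaling (−0.24) and without Ishikawa control 2 (−0.11). Of the clamp loader subunits, RFC3 rose by 0.52 ± 0.07 in Ishikawa cells and 0.15 ± 0.06 in KLE cells (log2 ± SE), where the call was lost under upper-quartile (0.11) and library-total scaling (0.12), with DESeq2 (0.15, adjusted p = 0.07), and without KLE control 1 or 2 or KLE CuCl2 1 or 3 (0.11 to 0.14). RFC5 rose by 0.34 ± 0.05 and RFC4 by 0.26 ± 0.06 in Ishikawa cells, and neither was called in KLE cells (0.09 ± 0.05 and −0.03 ± 0.05). The RFC4 call was lost under upper-quartile (0.14, adjusted p = 0.0557) and library-total scaling (0.10, adjusted p = 0.154), and RFC5 was called higher in KLE cells without KLE CuCl2 3 (0.13, adjusted p = 0.0407). RFC5 shares 186 exonic bases with WSB2 on the opposite strand. RFC2 was called in neither line (0.10 ± 0.05 in Ishikawa and −0.03 ± 0.04 in KLE cells).

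Polymerase subunits differed in direction in Ishikawa cells, where 2 of 6 rose and 2 fell, and 1 of 6 was called in KLE cells. The Ishikawa counts lie near the shares of all genes, 33.8% higher and 35.3% lower. POLA1, the catalytic subunit of polymerase alpha, rose by 0.33 ± 0.06 and POLE, that of the leading-strand polymerase epsilon, by 0.21 ± 0.05 in Ishikawa cells, while POLE2, the second subunit of the same epsilon enzyme, fell by 0.43 ± 0.10 there (log2 ± SE). The POLE call was lost under upper-quartile (0.10, adjusted p = 0.091) and library-total scaling (0.06, adjusted p = 0.333). POLE2 averaged 19.6 ± 0.71 CPM with CuCl2 and 26.6 ± 3.89 CPM without in Ishikawa cells, and 23.8 ± 2.86 CPM with CuCl2 and 27.8 ± 1.3 CPM without in KLE cells (SD, n = 3 each). In KLE cells POLE2 fell by 0.22 ± 0.08 with groups that overlap, a call lost with DESeq2 (adjusted p = 0.0674) and without KLE control 1 or KLE CuCl2 1 or 3 (−0.167 to −0.189). POLA1 and POLE were not called there (0.05 ± 0.05 and 0.06 ± 0.04), although POLE was called higher without KLE control 2 (0.10, adjusted p = 0.0448). POLD1, the catalytic subunit of the lagging-strand polymerase delta, had 44.9, 47.3 and 42.0 CPM in CuCl2 Ishikawa libraries, against 57.0, 76.8 and 51.9 CPM in controls. Ishikawa control 2 stands far above the rest, and the log2 fold change was −0.48 ± 0.14 (adjusted p = 0.0165) with it and −0.29 (adjusted p = 0.000568) without it, while the adjusted p was 0.0537 without Ishikawa CuCl2 1 and 0.0511 with no count filter. In KLE cells POLD1 stood at −0.01 ± 0.06. POLA2, the second subunit of polymerase alpha, and PRIM1, the catalytic primase, were called in neither line (POLA2 0.14 ± 0.07 and 0.001 ± 0.058, PRIM1 −0.01 ± 0.07 and 0.008 ± 0.054, Ishikawa value first). POLA2 was called higher in Ishikawa cells without control 2 (0.17, adjusted p = 0.0275). POLA2 shares 2012 exonic bases, POLD1 426 and PRIM1 up to 362 with another gene on the same strand, so their values depend on how the reads were shared out.

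The genes of deoxynucleotide supply split by enzyme. TYMS, thymidylate synthase, which makes dTMP from dUMP (chromosome 18, 657604 to 673578), had 81.2, 74.9 and 79.1 CPM in CuCl2 Ishikawa libraries, against 151, 151 and 143 CPM in controls. KLE cells stood at 107, 110 and 108 CPM with CuCl2, against 134, 136 and 138 CPM in controls. The groups are separate in both lines, with −0.92 ± 0.05 in Ishikawa cells (SE, adjusted p = 1.07e-09) and −0.33 ± 0.04 in KLE cells (adjusted p = 3.84e-09). TYMS shares 967 exonic bases with ENOSF1 on the opposite strand. RRM1, the large subunit of ribonucleotide reductase, averaged 345 ± 5.46 CPM with CuCl2 and 264 ± 5.74 CPM without in Ishikawa cells, and 273 ± 5.96 CPM with CuCl2 and 251 ± 3.25 CPM without in KLE cells (SD, n = 3 each). It rose by 0.38 ± 0.04 in Ishikawa cells and by 0.12 ± 0.03 in KLE cells (log2 ± SE), the KLE value being 0.08 (adjusted p = 0.0507) under upper-quartile scaling. RRM2, its small S-phase subunit, rose by 0.14 ± 0.05 in Ishikawa cells (adjusted p = 0.0212), with values of 0.02 (adjusted p = 0.684) under upper-quartile scaling, of −0.02 (adjusted p = 0.753) under library totals and of 0.08 (adjusted p = 0.0647) without Ishikawa control 2. Its call was also lost without Ishikawa control 1 or Ishikawa CuCl2 1 or 3 (0.13 in each), and it was −0.07 ± 0.03 in KLE cells (adjusted p = 0.0658). RRM2 was called lower in KLE cells under upper-quartile (−0.12, adjusted p = 0.00286) and library-total scaling (−0.10, adjusted p = 0.00938), with the 1 CPM filter (−0.08, adjusted p = 0.0497) and without KLE CuCl2 1 (−0.11, adjusted p = 0.0141). TK1, the salvage thymidine kinase, was called in neither line (0.15 ± 0.08 in Ishikawa and 0.008 ± 0.049 in KLE cells). In its Ishikawa controls it had 86.7, 105 and 80.2 CPM, and without control 2 its change of 0.27 was called (adjusted p = 7.81e-05).

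UHRF1, which brings the maintenance methyltransferase DNMT1 to newly copied DNA (chromosome 19, 4903080 to 4962154), had 79.3, 78.8 and 76.6 CPM in CuCl2 Ishikawa libraries, against 144, 149 and 140 CPM in controls. In KLE cells it had 118, 110 and 110 CPM with CuCl2, against 131, 134 and 136 CPM in controls. All CuCl2 libraries lay below all controls (−0.88 ± 0.05 SE, adjusted p = 1.15e-09 in Ishikawa cells, and −0.25 ± 0.04, adjusted p = 2.29e-06 in KLE cells). SLBP, which binds the stem-loop of replication-dependent histone mRNAs, averaged 114 ± 2.62 CPM with CuCl2 and 99.8 ± 1.15 CPM without in Ishikawa cells, and 130 ± 2.64 CPM with CuCl2 and 119 ± 4.18 CPM without in KLE cells (SD, n = 3 each). It rose by 0.19 ± 0.05 and 0.12 ± 0.04 (log2 ± SE), and both calls were lost under upper-quartile and library-total scaling, the KLE call also without KLE control 3 (0.10, adjusted p = 0.0944).

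Other genes of the same pathways were read as lists, which stand beside the shares of all genes given above. Of 40 further replication genes, 16 rose and 9 fell in Ishikawa cells and 14 rose and 5 fell in KLE cells. ORC3, another origin recognition subunit, averaged 57.6 ± 1.78 CPM with CuCl2 and 28.9 ± 1.88 CPM without in Ishikawa cells (SD, n = 3 each), a log2 change of 1.00 ± 0.07, and PRIM2, the large primase subunit, rose by 0.95 ± 0.06. In KLE cells POLD4, a small subunit of polymerase delta, rose by 0.87 ± 0.16 and CHTF18, of the alternative clamp loader, by 0.53 ± 0.07. Of 24 other nucleotide synthesis genes, 4 rose and 14 fell in Ishikawa cells (median −0.22) and 5 rose and 10 fell in KLE cells (median −0.02). DHODH, of pyrimidine synthesis, fell by 0.92 ± 0.11 and DUT, which degrades dUTP, by 0.73 ± 0.08 in Ishikawa cells. RRM2B, the p53-inducible reductase subunit, fell by 0.42 ± 0.05 and the serine hydroxymethyltransferase SHMT1 by 0.39 ± 0.05 in KLE cells.

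Of 24 tested other G1/S control genes, 14 rose and 8 fell in Ishikawa cells (median 0.33) and 11 rose and 7 fell in KLE cells (median 0.06). LIN54, the DNA-binding subunit of the DREAM complex, which represses cell cycle genes in quiescent cells, averaged 138 ± 4.63 CPM with CuCl2 and 53.1 ± 3.49 CPM without in Ishikawa cells (SD, n = 3 each; log2 change 1.38 ± 0.06 SE). LIN37, another DREAM subunit, rose by 1.18 ± 0.12. Both were named by size of change, and other genes of this complex in the list went both ways. LIN52, E2F4 and RBL1 rose in both lines, while RBL2, E2F5 and TFDP2 fell in both. TFDP1 fell in Ishikawa cells only, and LIN9 was called in neither line. A rise of the complex as a whole is therefore not read from these values. In KLE cells CCNA2, the S and G2 cyclin, averaged 100 ± 3.55 CPM with CuCl2 and 177 ± 4.74 CPM without (SD, n = 3 each; −0.82 ± 0.04 SE), and FBXO5, an inhibitor of the anaphase-promoting complex, fell by 0.82 ± 0.07.

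The G2 and M phase list, given for comparison, had 25 of 32 genes lower and 4 higher in Ishikawa cells (median −0.56) and 27 lower and 2 higher in KLE cells (median −0.33). KIF20A, a kinesin of cytokinesis, averaged 36.0 ± 3.15 CPM with CuCl2 and 166 ± 3.39 CPM without in Ishikawa cells, and CENPF, a kinetochore protein, 185 ± 6.75 CPM with CuCl2 and 411 ± 30.4 CPM without in KLE cells (SD, n = 3 each). PTTG1, the securin, had log2 changes of −2.14 ± 0.10 in Ishikawa cells and −1.02 ± 0.06 in KLE cells (SE). Of 34 replication-dependent histone genes, most of whose mRNAs lack a poly(A) tail and escape oligo(dT) selection, 14 passed the count filter in Ishikawa cells and 12 in KLE cells. In Ishikawa cells 10 were called higher, but genes such as H3C10 (0.869 CPM with CuCl2 and 0.0197 CPM without) and H2AC11 (1.38 CPM with CuCl2 and 0.442 CPM without) lay near the filter and may have passed it through the CuCl2 libraries, so the count is no measure of the list. In KLE cells 1 was called higher. H2BC12 averaged 13 ± 1.2 CPM with CuCl2 and 4.08 ± 0.59 CPM without in Ishikawa cells, and 8.89 ± 0.82 CPM with CuCl2 and 6.74 ± 0.59 CPM without in KLE cells (SD, n = 3 each). H2AC18 averaged 12.3 ± 5.63 CPM with CuCl2 and 4.63 ± 0.26 CPM without in Ishikawa cells (SD, n = 3 each), and its call there (adjusted p = 0.0249) comes with a wide spread.

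Whether the lines responded differently was tested in a fit of all 12 libraries. The difference, KLE response minus Ishikawa response, was called for 24 of the 40 genes, 11 higher and 13 lower, against 45.4% of 13663 genes called, 24.6% higher and 20.8% lower. The median difference was 0.01 for the 40 genes and 0.03 for all genes. In each of the 24 the size of the change was smaller in KLE cells, with a median size of 0.15 in KLE and 0.52 in Ishikawa cells (log2). The same share among all genes with a called difference was not worked out. For PCNA the sizes were nearly equal and the signs opposite (−0.087 in Ishikawa and 0.084 in KLE cells). GINS2, RFC4, RRM2, CCNE2 and CCND1 also had opposite signs, with no call in KLE cells. Over all 40 genes it was smaller in KLE cells in 39, or 97.5%, E2F2 being the exception, and over 12610 genes tested in both lines it was smaller in KLE cells in 75.4%. E2F8 had the largest difference, 0.92 ± 0.12 (log2 ± SE, adjusted p = 2.49e-06). UHRF1 followed at 0.69 ± 0.06 (adjusted p = 9.67e-09), E2F1 at 0.67 ± 0.12 (adjusted p = 8.81e-05) and CCND1 at 0.66 ± 0.06 (adjusted p = 4.26e-09). On the other side ORC6 stood at −0.65 ± 0.07 and CCNE2 at −0.59 ± 0.10. CCND3 (−0.10 ± 0.11), MCM10 (0.03 ± 0.08) and SLBP (−0.006 ± 0.061) rose in both lines, with no called difference between them. MCM5 (0.131 ± 0.075), POLE2 (0.26 ± 0.14) and E2F2 (−0.078 ± 0.115) fell in both, also with no called difference. The MCM5 difference was called with library totals (0.198) and without Ishikawa control 3 (0.185). Without Ishikawa control 2 the differences of POLE2 (0.363), TK1 (−0.21), POLE (−0.143) and CCNE1 (0.266) were called. The CCNE1 difference (0.24 ± 0.10, adjusted p = 0.0523) was also called with upper-quartile factors (0.249), library totals (0.309) and limma-voom (0.244). It was called as well without KLE control 2 (0.28) or KLE CuCl2 2 (0.276). That of CDT1 was called without Ishikawa control 3 (0.326). POLD1 had a difference of 0.53 ± 0.17 with Ishikawa control 2 and of 0.33 without it. MCM4 was at 0.15 ± 0.05 and lost its call under 9 settings, with 0.08 (adjusted p = 0.279) without Ishikawa CuCl2 1.

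**Figure D4:**
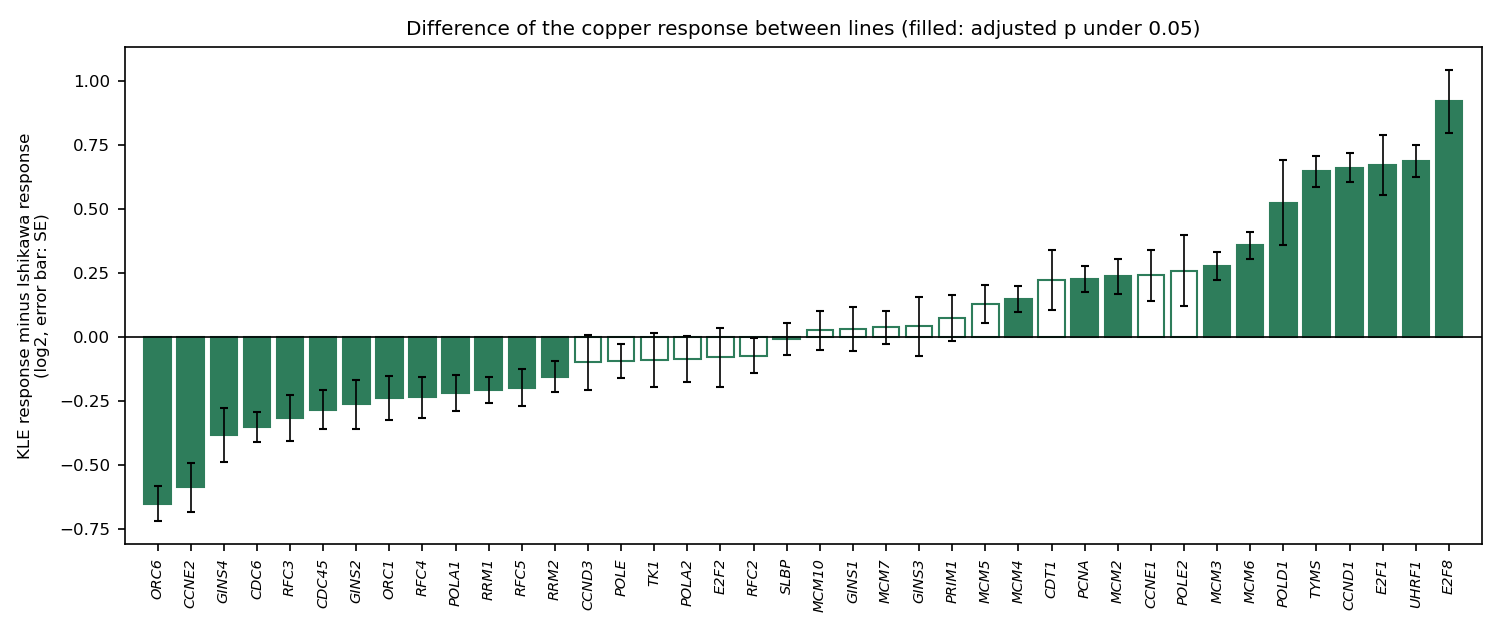
Difference of the copper response, KLE minus Ishikawa, on the log2 scale for each of the 40 genes in order, with the SE of the fit of 12 libraries; filled bars have an adjusted p under 0.05. ORC6 stands lowest at −0.65 and E2F8 highest at 0.92.

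Without copper the same genes stood at the top and the bottom of the list in both lines. In KLE controls the highest were PCNA at 655 ± 19.7 TPM, MCM4 at 426 ± 9.86 TPM and CCND1 at 334 ± 6.42 TPM, and the lowest were E2F2 at 10.4 ± 0.15 TPM, E2F8 at 19.1 ± 2.24 TPM and GINS3 at 19.3 ± 1.27 TPM (SD, n = 3). In Ishikawa controls the same genes led, PCNA at 474 ± 4.08 TPM, MCM4 at 431 ± 14.5 TPM and CCND1 at 402 ± 13 TPM, and the same 3 were lowest, E2F2 at 14.1 ± 1.52 TPM, E2F8 at 18.5 ± 1.51 TPM and GINS3 at 18.7 ± 0.64 TPM (SD, n = 3). E2F8 and GINS3 do not differ beyond their spread in either line. In KLE controls GINS4, at 19.97 ± 1.52 TPM, lies within that spread as well, so its place just above them is not firm. Between the lines 7 genes were higher and 12 lower in KLE cells, against 50% of 13663 genes called, 24.5% higher and 25.6% lower. The median was −0.01 for the 40 genes and −0.004 for all genes.

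E2F1 had 38.2, 39.7 and 39.5 TPM in KLE controls, against 58.2, 77.7 and 56.2 TPM in Ishikawa controls. It was lower in KLE cells by −0.66 ± 0.08 (log2 ± SE, adjusted p = 5.29e-07), and by −0.51 without Ishikawa control 2. PCNA had 633, 664 and 670 TPM in KLE controls, against 469, 477 and 476 TPM in Ishikawa controls. It was the gene furthest higher in KLE cells, at 0.53 ± 0.04 (adjusted p = 1.76e-11). E2F2 had 10.2, 10.4 and 10.5 TPM in KLE controls, against 13.96, 15.7 and 12.7 TPM in Ishikawa controls (−0.39 ± 0.08, adjusted p = 0.000189). MCM5 had 85.3, 85.2 and 89.0 TPM in KLE controls, against 57.0, 74.4 and 61.3 TPM in Ishikawa controls (0.35 ± 0.05, adjusted p = 4.9e-06). None of these groups overlap. MCM2 was not called between the untreated lines (0.06 ± 0.05). It was called higher in KLE cells without Ishikawa control 2 (0.13, adjusted p = 0.00864). POLD1 was lower in KLE cells (−0.31 ± 0.12, adjusted p = 0.0386), a call lost without Ishikawa control 2 (−0.12, adjusted p = 0.13), and also without any 1 KLE control, Ishikawa CuCl2 1 or KLE CuCl2 1 or 2 (adjusted p of 0.0511 to 0.0935).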

How the data were processed

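Poly(A)-selected RNA of 12 libraries was sequenced. GRCh38.p14, R 4.2.2, DESeq2, RSEM, HISAT2 2.1.0, Bowtie2 2.2.8 and fastp 0.18.0 stand in the submitters' processing notes; their roles, the annotation release and the use of strand were not stated in the sources used here. The authors deposited expected counts and the same values rounded to whole counts (differences of at most 0.5). They also deposited TPM, which per the file headers fill the tables whose names say FPKM. The whole counts went into edgeR 4.0.16 in R 4.3.3: filterByExpr, TMM, and a two-sided quasi-likelihood test with robust fitting, adjusted by Benjamini-Hochberg over all genes tested. The 6 libraries of a line were fitted for copper, and all 12 for contrasts between lines. CPM use TMM factors within a line, and each SE is the size of the change divided by the root of its F statistic. The test was also run on counts simulated with the gene levels and dispersions of these data. Genes without a symbol held 0.173 to 0.207% of counts. Gene coordinates come from GENCODE on GRCh38. All 40 members are accounted for. Full values are given for the 8 called members with the largest change per line and the 4 largest response differences. They are also given for the 4 largest differences between untreated lines. Up to 2 called genes of each other pathway list are named per line by size of change. A mean of at least 5 CPM was asked for. The other E2F genes, H3C10, H2AC11 and the cell type markers were named outside this rule. Per-library values of further members were chosen after their values were seen. The members and the 9 lists were chosen with earlier results of these data known. Other settings were scaling by RLE, by upper quartiles or by totals, a filter of 1 CPM in 3 libraries, no filter, DESeq2 1.42.0, limma-voom (limma 3.58.1), a replicate block, a minimum log2 change of 1, and leaving out each library.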

Additional observations from a re-analysis of the deposited data

Results flagged for a closer look

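The copper response differed between KLE and Ishikawa cells, by the test of the difference itself in the fit of 12 libraries, for 24 of the 40 genes. Values are KLE response minus Ishikawa response on the log2 scale. Among genes that fell in Ishikawa cells or were not called there, the difference was 0.92 for E2F8, 0.69 for UHRF1, 0.67 for E2F1, 0.66 for CCND1, 0.65 for TYMS, 0.53 for POLD1, 0.36 for MCM6, 0.28 for MCM3, 0.24 for MCM2, 0.23 for PCNA and 0.15 for MCM4. Among genes that rose in Ishikawa cells it was −0.65 for ORC6, −0.59 for CCNE2, −0.38 for GINS4, −0.35 for CDC6, −0.31 for RFC3, −0.28 for CDC45, −0.26 for GINS2, −0.24 for ORC1, −0.23 for RFC4, −0.22 for POLA1, −0.20 for RRM1, −0.20 for RFC5 and −0.15 for RRM2. The call held under every scaling, filter, tool, block and left-out library for 15 of them, and was lost under at least 1 such setting for GINS2, MCM2, MCM4, ORC1, POLA1, POLD1, RFC4, RFC5 and RRM2. Single libraries that ended a call were Ishikawa CuCl2 1 for MCM2, MCM4 and POLD1, Ishikawa CuCl2 2 for MCM4, and Ishikawa CuCl2 3 for MCM4 and POLD1. Among Ishikawa controls they were control 1 for MCM4, ORC1, RFC5 and RRM2, and control 2 for GINS2 and RRM2. Among KLE CuCl2 libraries they were CuCl2 1 for ORC1, RFC4 and POLD1, CuCl2 2 for GINS2 and RRM2, and CuCl2 3 for MCM4. Among KLE controls they were control 1 for MCM2, MCM4 and POLD1, control 2 for ORC1, GINS2, RFC4 and RRM2, and control 3 for ORC1, RFC5 and RRM2. With 1 of these libraries left out, the values of the affected genes were 0.169 to 0.179 for MCM2, 0.077 to 0.132 for MCM4, 0.44 to 0.5 for POLD1, −0.233 to −0.194 for ORC1, −0.254 to −0.184 for GINS2, −0.218 to −0.185 for RFC4, −0.196 to −0.187 for RFC5 and −0.155 to −0.104 for RRM2.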

How the results depend on the processing

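Calls held under every scaling, filter, tool, block and left-out library for 23 of 31 genes in Ishikawa cells, 17 of 22 in KLE cells, 15 of 24 for the response difference and 16 of 19 between untreated lines. With upper-quartile factors 11 genes were higher in Ishikawa cells and 7 in KLE cells, and with library totals 11 were higher in Ishikawa cells and 7 differences were lower. RRM2 in Ishikawa cells turned to −0.018 with library totals. When a change of 1 or more on the log2 scale was also asked for, 2 genes were left in Ishikawa cells (1 higher, ORC6, and 1 lower, E2F8) and 0 in each other comparison. With a library left out, the genes called numbered 28 to 32 in Ishikawa cells, 19 to 23 in KLE cells, 20 to 26 for the difference and 16 to 20 between untreated lines. Without Ishikawa control 2 they were 32, 26 for the difference and 19 between untreated lines. Deviations of same-numbered libraries correlated at 0.082, 0.208 and 0.093 in Ishikawa cells, against −0.172 to 0.086 for different numbers. In KLE cells they correlated at −0.112, −0.041 and −0.107, against −0.001 to 0.103 for different numbers. The numbers thus do not pair the KLE libraries, while a weak pairing of the Ishikawa libraries cannot be set aside. With a replicate block 32, 22, 24 and 20 genes were called. The causes were not tested. With 3 libraries a group, small changes may go uncalled.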
